A study of Arabidopsis thaliana with 24 samples.

Results

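The EDS1 family and the helper NLRs of Arabidopsis thaliana were followed here as 9 genes, chosen by their locus identifiers, and all 9 were present among the 27416 genes of the deposited count tables. They are EDS1 (AT3G48090), its tandem copy EDS1B (AT3G48080), PAD4 (AT3G52430) and SAG101 (AT5G14930), and the helper genes ADR1 (AT1G33560), ADR1-L1 (AT4G33300), ADR1-L2 (AT5G04720), NRG1.1 (AT5G66900) and NRG1.2 (AT5G66910). Each of them passed the filter on low counts, which left 19201 genes to be tested.

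NLRs (nucleotide-binding leucine-rich repeat receptors) recognise pathogen effectors inside plant cells. Those with a TIR domain produce small nucleotide signals, which are bound by dimers that the lipase-like protein EDS1 forms with PAD4 or with SAG101. The PAD4 dimer acts with the ADR1 helpers in basal and salicylic acid defence, and the SAG101 dimer acts with the NRG1 helpers, best known for cell death. In leaves the genes are active without infection and are raised by it.

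RNA was sequenced from 6 groups with 2 libraries each. DH6, DH9 and DH14 are doubled-haploid lines, that is, diploids whose genome comes from a haploid. The labels do not spell out sDH. For short, DH6, DH9, DH14 and sDH are called the lines below, which says nothing on what sDH is. The haploid is 1n, to which the submitters' descriptions attach the name Col. The diploid is 2n, taken here from count columns headed WT, which the submitters set against 1n under the name Col. No other accession or allele is given for any group, nor whether a line goes back to 1 plant. All plants were 2 weeks old and grown on soil at 22 °C under a day of 16 h light, 8 h dark, after 2 days at 4 °C. RNA came from leaves 6, 7 and 8, although the tissue label reads seedlings. By their labels the 2 libraries of each group are biological replicates, with nothing on whether they are separate plants or harvests, so the p-values measure only the spread between these libraries.

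Libraries held 16484799 to 22146896 counts, and 1 count stood for 0.0449 to 0.0632 CPM (counts brought to a common library size with edgeR's TMM scaling). The libraries of a group correlated at r = 0.970 in 1n and at 0.984 to 0.988 in the other groups. More genes had a count in DH6 II and DH6 III (21604 and 22215) than in any other library (20734 to 21139). Markers of leaf mesophyll summed to 40426 to 61634 CPM and were lowest in both 2n libraries (41933 and 40426 CPM). Markers of root summed to 9.28 to 16.0 CPM, with RHD6, PLT1 and EXPA7 at 0 in all 12 libraries, and those of seed to at most 0.373 CPM. Most of the root sum was SHR, with group means of 10.9 (2n) to 14.5 CPM (DH14). Markers of guard cells summed to 63.9 to 66.8 CPM in sDH and 2n and to 76.0 to 90.8 CPM in the other groups. The 4 guard cell markers did not move together. FAMA (mean 32.5 CPM in sDH and 23.9 in 1n) and EPF1 (4.50 and 2.10) were higher in sDH. KAT1 (15.7 and 34.8) and MYB60 (13.7 and 18.0) were lower. Those of pollen summed to 0.788 and 2.08 CPM in 1n and to at most 0.270 CPM in any other library. The part of these differences in the results below was not tested. Levels are not corrected for gene length and are compared only within a gene. In bulk leaves, fewer cells of a type and less RNA per cell cannot be told apart.

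DH6 and sDH had the 2 lowest mean levels of the 6 groups for 9 of 9 genes. The lowest mean was that of DH6 for 5 genes (SAG101, ADR1, ADR1-L1, ADR1-L2 and NRG1.1) and that of sDH for 4 (EDS1, EDS1B, PAD4 and NRG1.2). The highest mean was that of 2n for 7 genes and that of 1n for PAD4 and ADR1. DH9 and DH14 lay above DH6 and sDH for 9 of 9 genes, and DH14 above DH9 for 9 of 9. None of the 9 passed the test of DH9 against DH14. These orders of means were not counted over all tested genes, and the 9 genes vary together, so the counts are a description. Levels differed among the 6 groups for 9 of 9 genes, where 62% of all tested genes differed (edgeR's quasi-likelihood F-test with Benjamini-Hochberg adjustment). The adjusted p lay between 2.72e-06 for PAD4 and 0.0302 for NRG1.1. With each library left out in turn, 8 or 9 of the genes passed.

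**Figure D1:**
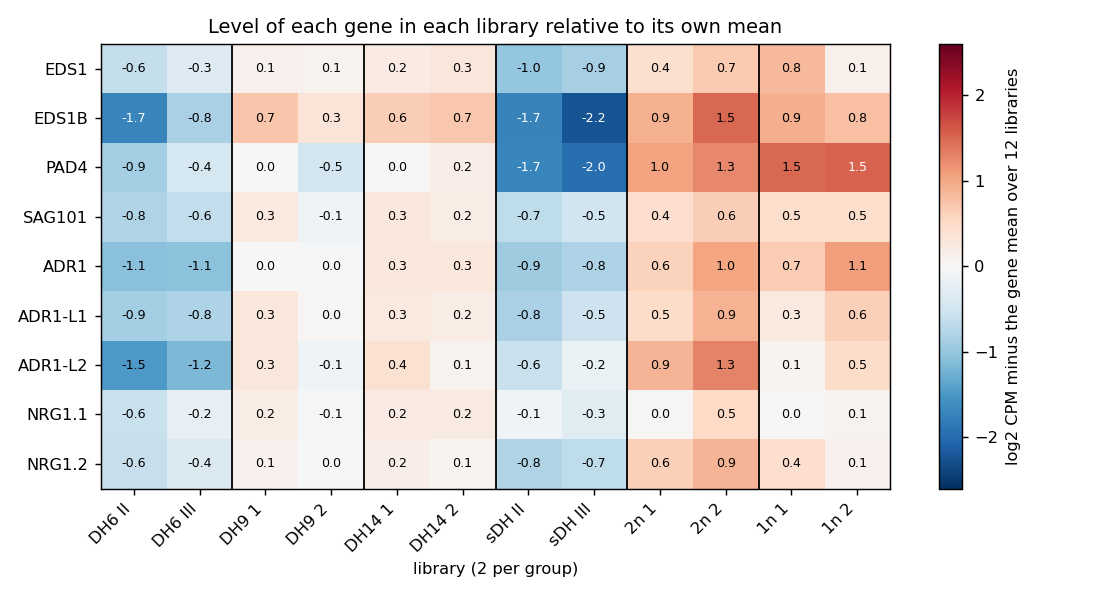
Level of each of the 9 genes (rows) in each of the 12 libraries (columns, 2 per group), as log2 CPM minus the mean of that gene over the 12 libraries. The columns of DH6 and sDH are blue for all 9 genes, with the deepest values for EDS1B and PAD4 in sDH III, and the NRG1.1 row is the palest.

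The span between the highest and the lowest group differed widely within the set. The ratio of the highest to the lowest group mean was 10.2 for PAD4, 9.90 for EDS1B, 5.42 for ADR1-L2 and 3.97 for ADR1. It was 2.92 for ADR1-L1, 2.82 for EDS1, 2.81 for NRG1.2, 2.39 for SAG101 and 1.60 for NRG1.1. Within some groups the genes also shifted together, and the same counts were not made over all tested genes. The second 2n library was higher than the first for 9 of 9 genes (median ratio 1.32), DH6 III was higher than DH6 II for 9 of 9 (median ratio 1.21), and the second DH9 library was lower than the first for 9 of 9 (median ratio 0.833). In DH14, sDH and 1n the genes were split, with 5, 6 and 5 of 9 higher in the second library. Over the 12 libraries, the 36 pairs of genes correlated in log2 CPM at r = 0.623 (PAD4 with NRG1.1) to 0.982 (SAG101 with ADR1-L1), with a median of 0.884. Those points are 6 groups of 2 libraries, and the genes of a library share its depth and its leaves. The values are a description.

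Against 1n, 8 of the 9 genes fell in DH6 and none rose, where 24.5% of all tested genes fell and 22.6% rose. Their median log2 change was -1.30, beside -0.01 over all genes. In sDH, too, 8 of 9 fell and none rose, where 24.4% of all genes fell and 24.1% rose (median log2 change -1.14, beside 0.01 over all genes). NRG1.1 was the gene that did not pass in either. In DH9 2 of 9 fell, where 14.8% of all genes fell and 15.5% rose, and in DH14 2 of 9 fell, where 11.8% of all genes fell and 12.2% rose. These were PAD4 and ADR1 in both lines, and the medians of the 9 were -0.33 in DH9 and -0.23 in DH14. In 2n 2 of 9 rose and none fell, where 21% of all genes rose and 19.9% fell, and these were ADR1-L2 and NRG1.2 (median of the 9 genes 0.24). A share of 2 in 9 is near that background.

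Against 2n, 9 of 9 genes fell in DH6, where 13.2% of all genes fell, and 9 of 9 fell in sDH, where 15% did. The medians were -1.55 and -1.49, beside 0.05 and 0.04 over all genes. In DH9 6 of 9 fell, where 8.57% of all genes fell (median -0.70), and in DH14 4 of 9 fell, where 13.6% did (median -0.56). Those last 2 counts depended on single libraries. Most of their calls were lost without the second 2n library or without the second library of the line. In these fits fewer genes fell over the whole table too. The gene that kept its call in each was PAD4. The 5 comparisons against 1n share the 1n libraries and the 4 against 2n share the 2n libraries, so their values stand side by side and do not support each other.

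Among the lines themselves, 9 of 9 genes fell in DH6 against DH14, where 14.1% of all genes fell, and 6 of 9 fell in DH6 against DH9, where 9.33% did. Without DH6 II the count against DH14 was 5, and without either DH14 library it was 6. None of the 9 passed in DH9 against DH14, where 3.1% of all genes changed, and none did so with DESeq2 or with any library left out. At an unadjusted p under 0.05 the count was 0. Against sDH, 7 of 9 rose in DH9 (13.5% of all genes) and 8 of 9 rose in DH14 (14.2% of all genes). Between DH6 and sDH, PAD4 rose and ADR1-L2 fell in DH6 (2.88% and 4.45% of all genes). Neither passed without DH6 III or without sDH III.

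**Figure D2:**
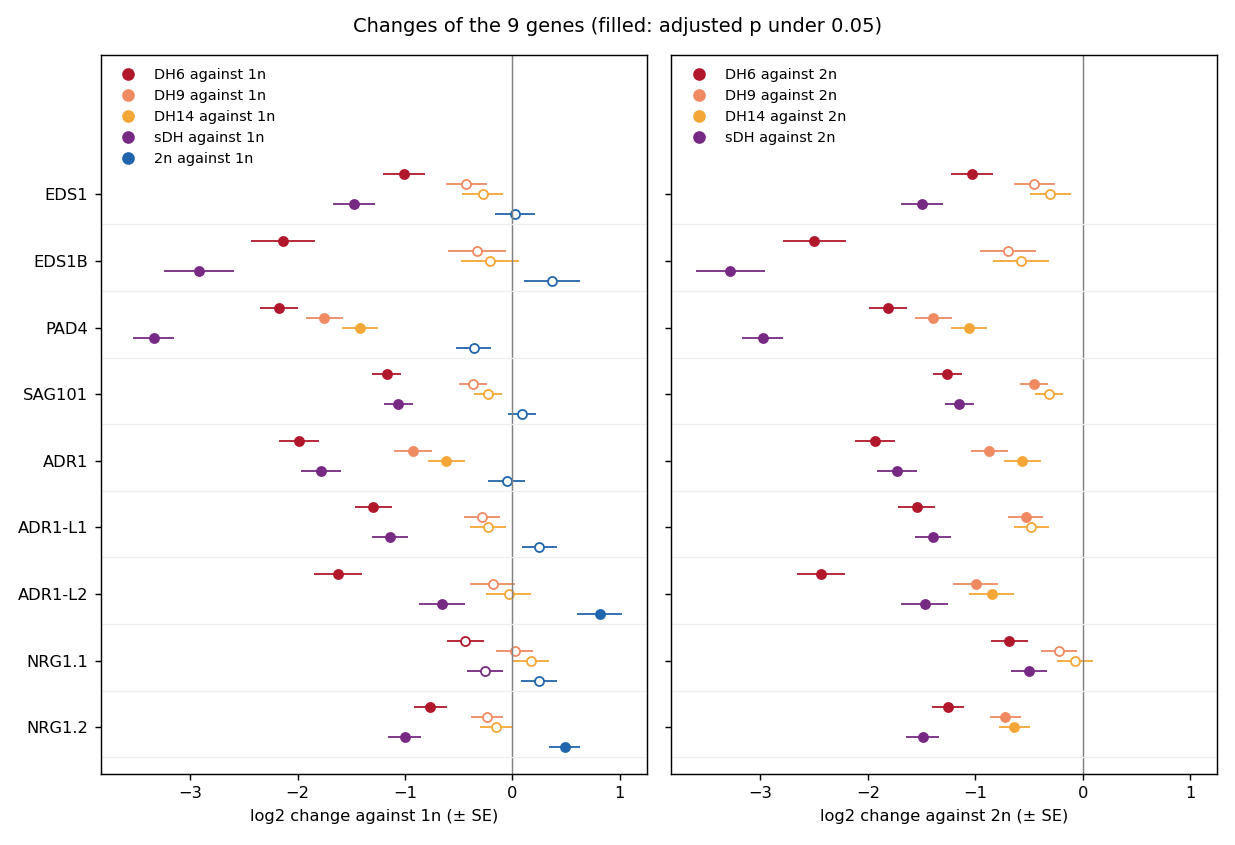
Log2 change of each gene with its standard error, for DH6, DH9, DH14, sDH and 2n against 1n (left) and for the 4 lines against 2n (right). Filled points passed edgeR's test at an adjusted p under 0.05. The red and purple points of DH6 and sDH lie left of 0 for all 9 genes in both panels.

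EDS1, the partner common to both dimers, was 2.01-fold to 2.82-fold lower in DH6 and sDH than in 2n and 1n. It stood at 25.0 and 30.3 CPM in DH6, 41.7 and 41.0 in DH9, 44.6 and 47.2 in DH14, 19.2 and 20.9 in sDH, 51.5 and 61.6 in 2n, and 69.1 and 42.3 CPM in 1n. Every DH6 and sDH library lay below every library of the other groups, while the 1n libraries lay on either side of 2n. EDS1 fell in DH6 against 1n (log2 change -1.01, SE 0.192, edgeR adjusted p = 0.00145) and in sDH against 1n (-1.48, SE 0.197, adjusted p = 0.000132). Against 2n the log2 change was -1.03 in DH6 (edgeR adjusted p = 0.00276) and -1.50 in sDH (adjusted p = 0.00023). DH9 and DH14 did not pass against either control, with log2 changes of -0.43 and -0.28 against 1n, although DH9 passed against 2n with only their 4 libraries in the fit (edgeR adjusted p = 0.0212). The values against 1n depended on the 1n library. Without the second 1n library, EDS1 passed in DH9 (-0.74, edgeR adjusted p = 0.00217) and in DH14 (-0.59, adjusted p = 0.0101), and without the first one the change in DH14 was 0.12 and EDS1 rose in 2n (0.42, adjusted p = 0.036). In the order of mean levels, 2n, 1n, DH14, DH9, DH6 and sDH from high to low, no neighbours differed by the test.

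EDS1B, the tandem copy of EDS1, had its levels in DH6 and sDH well apart from those of the other 4 groups. It had 1.48 and 2.80 CPM in DH6 (33 and 59 counts), 8.45 and 6.47 in DH9, 7.93 and 8.27 in DH14, 1.45 and 0.995 in sDH (31 and 17 counts), 9.71 and 14.4 in 2n, and 9.88 and 8.84 CPM in 1n. The 4 libraries of DH6 and sDH were all below 3 CPM and the other 8 all above 6 CPM. EDS1B fell in DH6 against 1n (log2 change -2.13, SE 0.298, edgeR adjusted p = 0.000203) and more than that in sDH (-2.91, SE 0.326, adjusted p = 4.04e-05), although DH6 and sDH did not differ by the test (0.78, SE 0.36, adjusted p = 0.218). Against 2n its change was -2.50 in DH6 (edgeR adjusted p = 0.000146) and -3.28 in sDH (adjusted p = 3.21e-05). DH9 and DH14 did not pass against 1n (-0.33 and -0.21) or 2n (-0.70 and -0.57). The order of means was 2n, 1n, DH14, DH9, DH6 and sDH, and the only neighbours that differed were DH9 and DH6 (edgeR adjusted p = 0.00319).

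PAD4, the partner through which EDS1 engages the ADR1 helpers, had the widest ratio of highest to lowest group mean. It had 9.89 and 13.5 CPM in DH6, 18.2 and 13.1 in DH9, 18.4 and 20.9 in DH14, 5.65 and 4.68 in sDH, 37.9 and 44.1 in 2n, and 51.9 and 53.3 CPM in 1n. All 8 libraries of the lines lay below all 4 control libraries, and both sDH libraries lay below the rest. Against 1n it fell in DH6 (log2 change -2.17, SE 0.177, edgeR adjusted p = 8.25e-06), in DH9 (-1.75, SE 0.174, adjusted p = 5.79e-05), in DH14 (-1.42, SE 0.171, adjusted p = 0.000356) and in sDH (-3.34, SE 0.194, adjusted p = 1.26e-06). Set against 2n, the log2 change was -1.81 for DH6, -1.39 for DH9, -1.06 for DH14 and -2.98 for sDH (edgeR adjusted p = 0.00126 or smaller). Each of these 8 calls held with every library left out and under every other setting tried. The levels in 2n and 1n did not differ by the test (-0.36, SE 0.165, edgeR adjusted p = 0.103), although both 2n libraries were below both 1n libraries. In the order 1n, 2n, DH14, DH9, DH6 and sDH, the neighbours that differed were DH14 and 2n, and DH6 and sDH (1.17, SE 0.198, adjusted p = 0.00692).

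SAG101, which pairs with EDS1 in the NRG1 branch, fell in DH6 and sDH with little spread between libraries. It had 8.22 and 9.01 CPM in DH6, 16.9 and 13.2 in DH9, 17.1 and 16.1 in DH14, 8.86 and 9.77 in sDH, 19.2 and 22.0 in 2n, and 19.4 and 19.4 CPM in 1n. DH6 and sDH libraries overlapped with each other and with no library of another group. Its log2 change against 1n was -1.17 in DH6 (SE 0.137, edgeR adjusted p = 6.46e-05) and -1.06 in sDH (SE 0.137, adjusted p = 0.000108), and against 2n it was -1.26 in DH6 and -1.15 in sDH (adjusted p = 8.57e-05 and 0.000116). In DH9 it fell against 2n (-0.45, SE 0.131, edgeR adjusted p = 0.0371), a call lost with DESeq2 (adjusted p = 0.0772). In edgeR it was lost with only the libraries of DH9 and 2n (adjusted p = 0.0548), without those of DH6 and sDH (0.0591) and with the replicate block (0.0826). The call was also lost without either 2n library (log2 change -0.55 and -0.35) and without the second DH9 library (-0.28). Against 1n it did not pass in DH9 (-0.37, edgeR adjusted p = 0.0583) except without the first DH9 library (adjusted p = 0.0261). In the order 2n, 1n, DH14, DH9, sDH and DH6, only DH9 and sDH differed as neighbours (adjusted p = 0.00408).

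**Figure D3:**
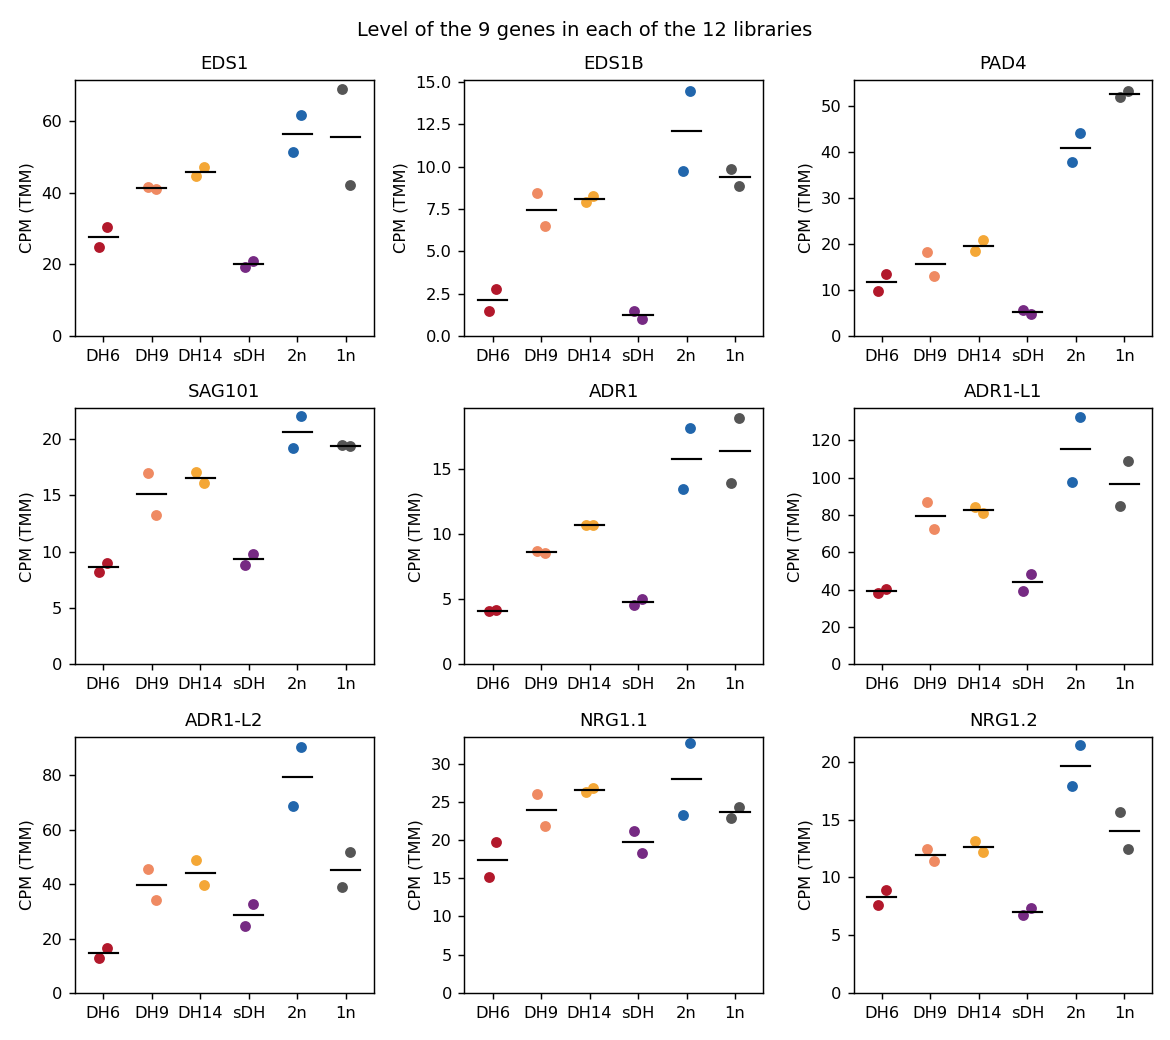
Level of each gene in CPM (TMM-scaled, linear axis from 0) in the 2 libraries of DH6, DH9, DH14, sDH, 2n and 1n, with the group mean as a black bar. DH6 and sDH sit lowest in every panel, and PAD4 is the panel in which DH9 and DH14 lie farthest below the controls.

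ADR1, the founding gene of the helper group that works with PAD4, was, besides PAD4, the gene that fell in all 4 lines against both 1n and 2n. It had 4.09 and 4.17 CPM in DH6, 8.72 and 8.54 in DH9, 10.7 and 10.7 in DH14, 4.57 and 4.97 in sDH, 13.4 and 18.1 in 2n, and 13.9 and 18.9 CPM in 1n. The groups formed 3 levels without overlap, namely DH6 with sDH, then DH9 with DH14, then 2n with 1n, and the 2 controls overlapped. ADR1 fell against 1n in DH6 (log2 change -1.99, SE 0.187, edgeR adjusted p = 1.83e-05), in DH9 (-0.92, SE 0.177, adjusted p = 0.00284), in DH14 (-0.62, SE 0.174, adjusted p = 0.0263) and in sDH (-1.78, SE 0.187, adjusted p = 2.72e-05). Against 2n the changes were -1.93 for DH6, -0.87 for DH9, -0.56 for DH14 and -1.72 for sDH (edgeR adjusted p = 0.035 or smaller). The calls in DH14 did not hold without either DH14 library (adjusted p = 0.106 to 0.134), without the second 1n library (adjusted p = 0.166) or without the second 2n library (adjusted p = 0.261), and that against 2n was also lost with DESeq2 (adjusted p = 0.0536). The call in DH9 against 2n did not hold without the second DH9 library (adjusted p = 0.0687) or the second 2n library (adjusted p = 0.0618), while that against 1n held throughout. In the order 1n, 2n, DH14, DH9, sDH and DH6, the neighbours DH14 and 2n differed, as did DH9 and sDH.

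ADR1-L1, a helper that overlaps in function with ADR1 and ADR1-L2, fell in DH6 and sDH against both 2n and 1n. It had 38.3 and 40.6 CPM in DH6, 86.9 and 72.4 in DH9, 84.3 and 81.1 in DH14, 39.3 and 48.6 in sDH, 97.8 and 133 in 2n, and 84.6 and 109 CPM in 1n. DH6 and sDH overlapped and lay apart from the rest, and DH9 overlapped with 1n. Its log2 change against 1n was -1.30 in DH6 (SE 0.17, edgeR adjusted p = 0.000134) and -1.14 in sDH (SE 0.17, adjusted p = 0.000272), and against 2n it was -1.55 in DH6 and -1.39 in sDH. In DH9 against 2n it passed narrowly (-0.53, edgeR adjusted p = 0.0492). The call was lost without the DH6 libraries (adjusted p = 0.061), without those of DH6 and sDH (0.071) and with the replicate block (0.0941). It was also lost without either DH9 library (log2 change -0.67 and -0.40) or the second 2n library (-0.29). DH14 against 2n stood just outside (-0.48, edgeR adjusted p = 0.0552), and passed with DESeq2 (adjusted p = 0.0184) and without the first 2n library (adjusted p = 0.0258). As neighbours in the order 2n, 1n, DH14, DH9, sDH and DH6, DH9 and sDH differed (adjusted p = 0.00393).

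ADR1-L2, a paralog of ADR1-L1, was the helper with the widest range. It had 13.0 and 16.4 CPM in DH6, 45.5 and 34.1 in DH9, 48.8 and 39.5 in DH14, 24.7 and 32.7 in sDH, 68.6 and 90.3 in 2n, and 38.8 and 51.7 CPM in 1n. Both 2n libraries were above all others, both DH6 libraries below all others, and DH9, DH14 and 1n overlapped. It rose in 2n against 1n (log2 change 0.81, SE 0.211, edgeR adjusted p = 0.0101), a call lost without the second 2n library (adjusted p = 0.0887) or the first 1n library (adjusted p = 0.0555). It fell in DH6 against 1n (-1.62, SE 0.222, adjusted p = 0.000173) and in sDH against 1n (-0.66, SE 0.215, edgeR adjusted p = 0.0255), the second of which did not hold without sDH II or the second 1n library (adjusted p = 0.187 and 0.153). Against 2n it was lower in all 4 lines, with log2 changes of -2.44 for DH6, -0.997 for DH9, -0.85 for DH14 and -1.47 for sDH, and the calls of DH9 and DH14 were lost without the second 2n library (adjusted p = 0.0702 and 0.099) or the second library of the line (adjusted p = 0.105 and 0.114). ADR1-L2 was lower in DH6 than in sDH (-0.97, SE 0.221, edgeR adjusted p = 0.0254). In the order 2n, 1n, DH14, DH9, sDH and DH6, the top pair and the bottom pair of neighbours differed.

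NRG1.1, a helper of the SAG101 branch, varied least. It had 15.2 and 19.7 CPM in DH6, 26.0 and 21.9 in DH9, 26.3 and 26.8 in DH14, 21.2 and 18.3 in sDH, 23.3 and 32.6 in 2n, and 22.9 and 24.3 CPM in 1n. The libraries of DH9 enclosed those of 1n, the first 2n library lay between them, and DH6 and sDH lay below 1n by a small margin. Against 1n the log2 change was -0.44 in DH6 (SE 0.171, edgeR adjusted p = 0.0554) and -0.26 in sDH (SE 0.171, adjusted p = 0.238). The DH6 value lay on the other side of the threshold without the filter on low counts (adjusted p = 0.0276), with DESeq2 (0.049) or without DH6 III (0.0359). Against 2n it fell in DH6 (-0.68, SE 0.169, edgeR adjusted p = 0.0133) and in sDH (-0.50, SE 0.169, adjusted p = 0.0449), and neither call held without the second 2n library (adjusted p = 0.134 and 0.363). The first was also lost without DH6 II (adjusted p = 0.0996), and the second without sDH II or sDH III (adjusted p = 0.0786 and 0.221). No neighbours differed in the order 2n, DH14, DH9, 1n, sDH and DH6.

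NRG1.2, its tandem neighbour, separated the groups more clearly. It had 7.64 and 8.91 CPM in DH6, 12.5 and 11.5 in DH9, 13.1 and 12.2 in DH14, 6.72 and 7.32 in sDH, 17.9 and 21.5 in 2n, and 15.6 and 12.4 CPM in 1n. DH6 and sDH did not overlap with other groups, both 2n libraries were highest, and 1n overlapped with DH9 and DH14. It rose in 2n against 1n (log2 change 0.49, SE 0.145, edgeR adjusted p = 0.02), a call lost without the second 2n library (adjusted p = 0.15), without the second 1n library (adjusted p = 0.124) or with only the libraries of 2n and 1n in the fit (adjusted p = 0.101). It fell against 1n in DH6 (-0.76, SE 0.151, edgeR adjusted p = 0.00182) and in sDH (-1.003, SE 0.154, adjusted p = 0.000343). The log2 changes against 2n were -1.25 for DH6, -0.72 for DH9, -0.64 for DH14 and -1.49 for sDH, and all passed. The calls of DH9 and DH14 were lost without the second 2n library (adjusted p = 0.0586 and 0.0685) or the second library of the line (adjusted p = 0.0782 and 0.0682). In the order 2n, 1n, DH14, DH9, DH6 and sDH, the neighbours 2n and 1n differed, and so did DH9 and DH6 (adjusted p = 0.0359).

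EDS1 and EDS1B are neighbours in the RefSeq gene order, and so are NRG1.1 and NRG1.2. How reads that match both copies of a pair were counted is not given in the sources used here, so each pair was also read as a whole. EDS1 held 94.4 and 91.6% of the counts of its pair in DH6 and 93.0 and 95.5% in sDH. It held 83.2 and 86.4% in DH9, 84.9 and 85.1% in DH14, 84.1 and 81.0% in 2n, and 87.5 and 82.7% in 1n. The share was thus higher in all 4 libraries of DH6 and sDH than in the other 8, and by exact binomial 95% intervals the lowest lower bound of the 4 was 89.2% (DH6 III) and the highest upper bound of the others was 89.2% (first 1n library). NRG1.1 held 71.4 and 76.0% of its pair in sDH, 65.6 to 68.8% in DH6, DH9 and DH14, 56.5 and 60.3% in 2n, and 59.4 and 66.2% in 1n. The intervals cover counting error only.

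With the counts of a pair added before the fit, EDS1 and EDS1B together fell in DH6 against 1n (log2 change -1.13, SE 0.186, edgeR adjusted p = 0.000596) and in sDH against 1n (-1.61, SE 0.191, adjusted p = 5.87e-05). NRG1.1 and NRG1.2 together fell in DH6 against 1n (-0.55, SE 0.145, edgeR adjusted p = 0.0093) and in sDH against 1n (-0.49, SE 0.145, adjusted p = 0.0162). Against 2n both sums fell in DH6 and in sDH. Neither sum passed in DH9, DH14 or 2n against 1n, and neither passed in DH9 or DH14 against 2n. The sum of NRG1.1 and NRG1.2 did not pass in 2n against 1n (0.34, edgeR adjusted p = 0.0791), where NRG1.2 alone did.

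**Figure D4:**
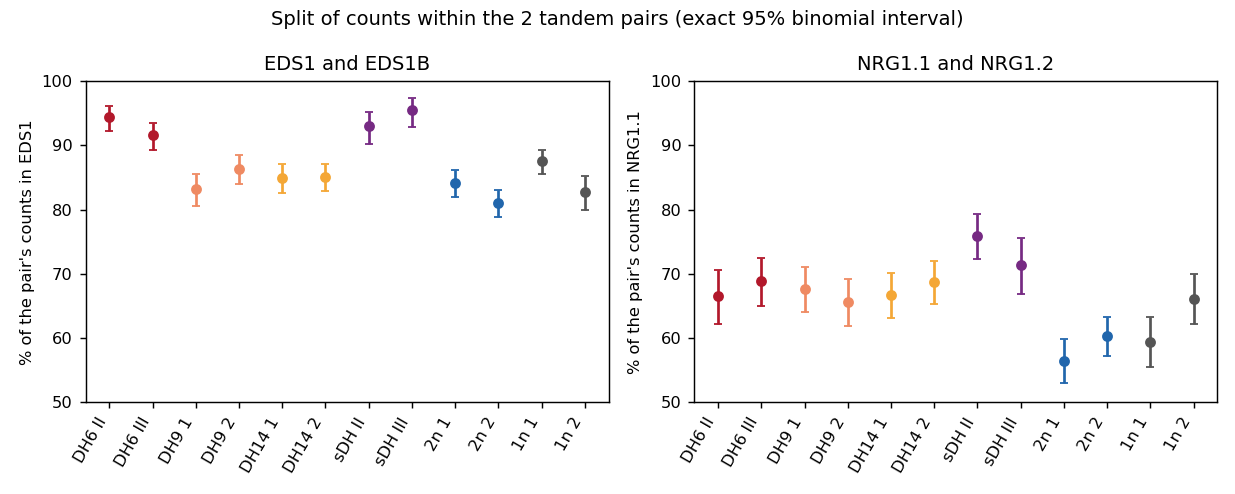
Share of the counts of each tandem pair that fell to EDS1 (left) or NRG1.1 (right) in each library, in percent on an axis that starts at 50, with exact binomial 95% intervals. All 4 DH6 and sDH libraries lie above 91% for EDS1, and the 2 sDH libraries are highest for NRG1.1.

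Of 4 coding genes that flank the tandem copies, 2 differed among the 6 groups, where 62% of all tested genes did. AT3G48070, beside EDS1B, had 27.3 and 23.8 CPM in DH6, 24.2 and 24.9 in sDH, 26.7 and 23.1 in 2n and 23.7 and 24.4 CPM in 1n, and did not differ among the 6 groups (edgeR F-test adjusted p = 0.381). ARR5, a cytokinin response regulator beside EDS1, did not differ either (adjusted p = 0.108), with 5.80 and 4.03 CPM in DH6, 6.95 and 8.37 in sDH and 8.06 and 13.8 CPM in 1n. In single comparisons ARR5 fell in DH6 against 1n (log2 change -1.15, edgeR adjusted p = 0.0194). Near the NRG1 genes, SNRK2.3, an abscisic acid signalling kinase, and SKS17, a member of the SKU5-similar family, differed among the groups (adjusted p = 0.0237 and 0.0134), and neither passed in DH6 or sDH against 1n or against 2n.

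Of 7 related genes, 4 could be tested. HR4, a homolog of the powdery mildew resistance gene RPW8, had 11.6 and 20.4 CPM in DH6, 92.9 and 65.0 in DH9, 102 and 89.3 in DH14, 17.4 and 10.7 in sDH, 203 and 221 in 2n, and 294 and 254 CPM in 1n. The order of its group means was that of PAD4, and the libraries of DH6 overlapped with those of sDH and the libraries of DH9 with those of DH14. HR4 fell against 1n, with log2 changes of -4.10 for DH6, -1.80 for DH9, -1.52 for DH14 and -4.28 for sDH (edgeR adjusted p = 0.00227 or smaller). HR3, its neighbour in the same cluster, had 1.48 and 2.89 CPM in DH6, 1.77 and 1.46 in sDH, 12.2 and 14.3 in 2n and 3.76 and 6.44 CPM in 1n. HR3 rose in 2n against 1n (1.38, SE 0.308, edgeR adjusted p = 0.00446) and fell in DH6 and sDH against 1n (-1.22 and -1.64, adjusted p = 0.0131 and 0.00332). ZAR1, a receptor with a coiled-coil domain that forms a membrane channel, had 74.3 and 76.5 CPM in DH6, 67.0 and 73.6 in sDH, 208 and 306 in 2n and 139 and 201 CPM in 1n. It fell in DH6 and sDH against 1n (-1.17 and -1.27) and rose in 2n (0.60, edgeR adjusted p = 0.0285). NRG1.3, the third copy beside NRG1.1, had 12 and 12 counts in 2n, 4 and 4 in 1n and at most 4 counts in any other library, and it passed only in DH6 and DH14 against 2n (edgeR adjusted p = 0.0327 and 0.0134). ADR1-L3 had no count in any library, which allows 0.135 to 0.189 CPM, the level of 3 counts. HR1 had 22 and HR2 had 7 counts over all 12 libraries and were not tested.

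Genes that act around EDS1 were read as 4 lists of known members, taken from general knowledge. The lists were chosen with earlier results of these data known. Their counts beside the shares over all genes are therefore a description. Upstream, of 17 receptors with a TIR domain 15 were tested. In DH6 against 1n 11 of them fell and none rose, and in sDH 9 fell and none rose (median log2 change -0.62 and -0.61), where 24.5% and 24.4% of all tested genes fell. Many of these calls were lost without DH6 II, DH6 III or sDH III, fits in which fewer genes fell over the whole table too. In DH9 and DH14 none of the 15 passed against 1n with edgeR (medians -0.05 and -0.01). Over all genes 14.8% fell and 15.5% rose in DH9, and 11.8% fell and 12.2% rose in DH14. At an unadjusted p under 0.05 there were 2 of the 15 in DH9 and 0 in DH14, and DESeq2 called 0 and 0. In 2n against 1n 2 rose (CHS1 and WRR4B) and 1 fell (RPP1), both shares below those over all genes (21% rose and 19.9% fell), and without the second 2n library none rose and 6 fell. WRR4A, a white rust resistance receptor, had 13.1 and 14.6 CPM in DH6, 16.6 and 16.8 in sDH, 36.5 and 68.1 in 2n and 49.1 and 58.3 CPM in 1n. It fell in DH6 against 1n (-1.96, SE 0.254, edgeR adjusted p = 0.000124) and in sDH (-1.69, adjusted p = 0.000281). WRR4B, its relative, was lower in DH6 (2.07 and 2.32 CPM) and higher in 2n (8.62 and 11.7 CPM) than in 1n (3.94 and 6.00 CPM; edgeR adjusted p = 0.00398 and 0.00559). LAZ5, a receptor whose overactivity causes cell death, fell in DH6 and sDH against 1n (-0.72 and -0.76, adjusted p = 0.00216 and 0.00156). TN2 had no count in any of the 8 libraries of the lines, 4 and 3 counts in 2n and 2 and 16 counts in 1n, and RLM1A had at most 2 counts a library.

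Among 7 receptors with a coiled-coil domain, several of which signal through NDR1, 5 fell in DH6 and 6 in sDH against 1n, and none rose, where 24.5% and 24.4% of all genes fell. Most of the first count was lost without DH6 II or without the second 1n library, and part of the second without sDH III. In these fits fewer genes fell over the whole table too. In 2n against 1n 3 rose (RPM1, RPS2 and RPP13) and none fell, where 21% of all genes rose and 19.9% fell. RPS2, which guards RIN4 against a bacterial effector, had 12.7 and 13.2 CPM in DH6, 11.3 and 10.2 in sDH, 36.1 and 40.2 in 2n and 17.5 and 19.1 CPM in 1n. It fell in DH6 (-0.50, SE 0.134, edgeR adjusted p = 0.0105) and in sDH (-0.77, adjusted p = 0.000889), and rose in 2n (1.06, adjusted p = 9.43e-05). RPP13 and RPP7 confer resistance to downy mildew. RPP13 rose in 2n (0.80, edgeR adjusted p = 4.33e-05), and RPP7 fell in DH6 and sDH (-0.71 and -0.89, adjusted p = 0.011 and 0.00309). In DH14 none of the 7 passed against 1n with edgeR or DESeq2 (1 at an unadjusted p under 0.05), and in DH9 RPS2 and RPP13 rose and SUMM2 fell, calls that DESeq2 did not make. Over all genes 11.8% fell and 12.2% rose in DH14, and 14.8% fell and 15.5% rose in DH9. Both lists of receptors held members that fell in DH6 and sDH, and the difference between the lists was not tested.

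Of 13 genes listed as regulators, NDR1 of the coiled-coil receptors among them, 12 were tested, since BON1 is listed at 0 in all 12 libraries. The reason for that 0 was not tested. The list was not split into genes that promote and genes that restrain the pathway, so its counts give no direction of pathway activity. Against 1n, 7 of the 12 fell in DH6 and 5 in sDH, with 2 in DH9 and 1 in DH14, and none rose. Over all genes 24.5% fell in DH6, 24.4% in sDH, 14.8% in DH9 and 11.8% in DH14, so the counts in DH9 and DH14 were near or below the background. The counts in DH9 and DH14 were 1 to 3 and 0 to 2 over the other settings. In 2n 4 rose (BAP1, HSP90.2, NUDT7 and NDR1) and 3 fell (SRFR1, LSD1 and CPR5), where 21% of all genes rose and 19.9% fell. The second count, near that background, was 1 with only the libraries of 2n and 1n in the fit. NUDT7, a hydrolase that restrains EDS1 signalling, had 16.9 and 18.4 CPM in DH6, 25.1 and 35.6 in sDH, 110 and 124 in 2n and 65.5 and 54.6 CPM in 1n. It rose in 2n (0.96, SE 0.184, edgeR adjusted p = 0.00185) and fell in DH6 and sDH (-1.77 and -0.99, adjusted p = 4.31e-05 and 0.00139). BAP1, a partner of BON1 that restrains cell death, had 1.17 and 1.80 CPM in DH6, 2.91 and 2.57 in DH9, 4.10 and 3.10 in DH14, 2.99 and 3.86 in sDH, 31.1 and 27.6 in 2n, and 1.51 and 3.92 CPM in 1n. Both 2n libraries lay far above the other 10, and BAP1 rose in 2n against 1n (3.44, SE 0.329, edgeR adjusted p = 1.78e-05). NDR1, needed by several coiled-coil receptors, also rose in 2n (1.28, edgeR adjusted p = 0.000155) and fell in sDH (-0.89, adjusted p = 0.00216).

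Downstream, 14 of 14 genes of salicylic acid, pipecolic acid and related defence output were tested. Against 1n, 13 fell in DH6 and 14 in sDH, with median log2 changes of -2.63 and -3.14, and none rose, where 24.5% and 24.4% of all genes fell. In DH9 9 fell and 1 rose, and in DH14 9 fell and none rose (medians -1.75 and -1.53), where 14.8% and 11.8% of all genes fell. In 2n 3 rose and 4 fell (median -0.11), near the shares over all genes (21% rose and 19.9% fell). Without the second 2n library 2 fell in 2n, and without the second 1n library 5 rose. Against 2n, 14 of 14 fell in both DH6 and sDH and 12 in both DH9 and DH14, and none rose, where 13.2% of all genes fell in DH6, 15% in sDH, 8.57% in DH9 and 13.6% in DH14. Part of the count in DH9 was lost without the second DH9 library, a fit in which fewer genes fell over the whole table too. The count in DH14 was also lower under some of the other settings. In DH6 and sDH against 1n, 13 or 14 fell with each library left out and under each other setting tried. NUDT6, a hydrolase of NADH, had 6.07 and 6.92 CPM in DH6, 8.67 and 6.37 in DH9, 9.35 and 9.74 in DH14, 3.27 and 2.93 in sDH, 41.6 and 35.1 in 2n, and 72.8 and 52.9 CPM in 1n. All lines lay below both controls. NUDT6 fell against 1n, with log2 changes of -3.27 for DH6, -3.07 for DH9, -2.72 for DH14 and -4.33 for sDH (edgeR adjusted p = 2.38e-05 or smaller) and -0.71 in 2n (adjusted p = 0.00505). SARD4, a reductase of pipecolic acid synthesis, fell in the same 5 comparisons, with changes of -2.86 in DH6, -1.81 in DH9, -1.70 in DH14, -3.59 in sDH and -0.99 in 2n (edgeR adjusted p = 0.00216 or smaller). WRKY54, a transcription factor of salicylic acid responses, was the output gene that rose in DH9. It had 24.4 and 35.4 CPM in DH6, 54.6 and 49.8 in DH9, 36.7 and 34.9 in DH14, 11.9 and 13.1 in sDH, 71.3 and 70.7 in 2n, and 37.3 and 36.1 CPM in 1n. WRKY54 rose in DH9 (0.51, edgeR adjusted p = 0.0206) and 2n (0.95, adjusted p = 0.000382), and fell in sDH (-1.55, adjusted p = 1.79e-05), against 1n. The rise in DH9 was lost without either DH9 library or the second 1n library.

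**Figure D5:**
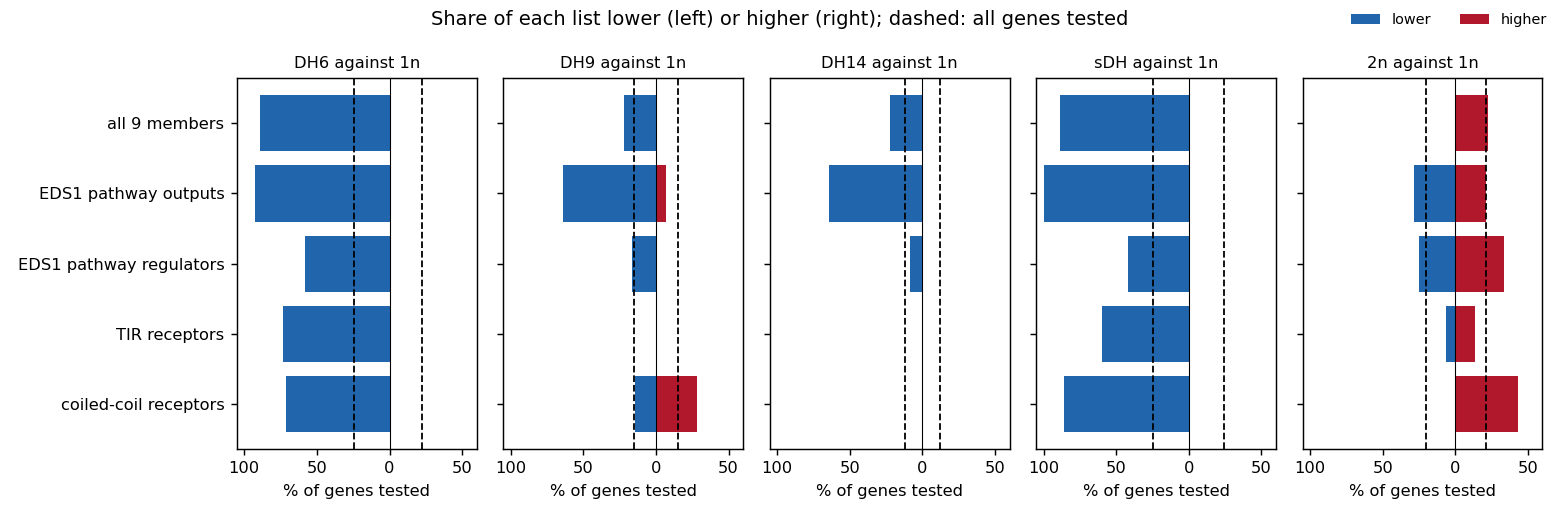
Percent of the tested genes of each list that were lower (blue, left of 0) or higher (red, right of 0) against 1n in DH6, DH9, DH14, sDH and 2n by edgeR at an adjusted p under 0.05. Dashed lines mark the percent lower and higher over all 19201 tested genes. In DH9 and DH14 the output list extends far beyond the line (9 of 14 lower in each), while the TIR receptors show no bar.

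Over the 12 libraries, the levels most like those of EDS1 were those of RLP46, MKK2, ENGase85A, NPR4 and CNGC11 (Pearson's r of log2 CPM 0.976 to 0.967). For PAD4 they were AT1G13470, CRK7, CRT3, CRK4 and AT5G10760 (r = 0.992 to 0.977), and for ADR1 they were AT1G49050, AT5G24210, NAC036, ALA1 and SNAP33 (r = 0.985 to 0.976). NRG1.1 had less close counterparts, PER4, AT4G01090, CPK9, AT4G35985 and AT3G15518 (r = 0.947 to 0.921). These are the closest of all tested genes outside the 9, ranked by r over 6 groups of 2 libraries, and they are given as a description. Within the set, the gene closest to EDS1 was EDS1B (r = 0.951), and the gene least like it was ADR1-L2 (r = 0.696).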

How the data were processed

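RNA sequencing libraries (poly(A), 150 bp paired-end reads) of 12 samples in 6 groups were analysed, and the 12 methylation samples of the series were not analysed here. The authors deposited gene counts, that is, whole numbers of reads per gene, in 5 tables. The submitters' processing notes name TAIR10, HISAT2, Subread and DESeq2, with versions and settings not given in the sources used here. Columns headed WT were taken as 2n, and the numerals II and III of the DH6 and sDH columns were kept. The 8 repeated 1n columns that could be compared were identical. The sDH table repeats the first 1n library in the place of the second, so both 1n libraries were read from the other tables. The 20 columns of 5 further tables, which hold counts of transposable elements, were not used. The libraries of every group differed by more than sampling noise.

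Genes with low counts were removed with filterByExpr of edgeR, set to a count of at least 10 and a total of at least 15. Counts were scaled by TMM, and 1 mean per group over all 12 libraries was fitted with edgeR's quasi-likelihood test (edgeR 4.0.16, limma 3.58.1, R 4.3.3). All 15 pairs of groups and the 6-group F-test were tested, each with Benjamini-Hochberg adjustment over 19201 genes and a threshold of 0.05. Correlations used log2 CPM with a prior count of 2. Alternatives were DESeq2 1.42.0, its size factors in edgeR, no filter, only the libraries of the groups compared, each library left out, the fit without DH6, a replicate block, and 2 added after seeing the data: tandem copies summed, and DH6 and sDH left out together. Depth was 16484799 to 22146896 counts a library.

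Members and lists were chosen with earlier results of these data known. Genes named are the 9 members, related and flanking genes, up to 3 genes of each other list with the smallest p of the F-test, list genes without counts, and the 5 genes most correlated with EDS1, PAD4, ADR1 and NRG1.1. Other list genes, named beside a small count, were chosen after their values were seen. Locus identifiers were matched to RefSeq (TAIR10.1) for names and gene order only, with 26719 of 27416 matched and 9 of 9 members. No sequences or coordinates were used.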

Additional observations from a re-analysis of the deposited data

Results flagged for a closer look

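For ADR1-L2 and NRG1.2, the differences from 1n went opposite ways in 2n and in DH6 and sDH, and each difference between those groups was itself tested. ADR1-L2 rose in 2n against 1n (0.81) and fell in DH6 against 1n (-1.62), and the difference, DH6 against 2n, was -2.44 on the log2 scale (SE 0.224, edgeR adjusted p = 3.18e-05). It fell in sDH against 1n as well (-0.66), with a difference of sDH against 2n of -1.47 (SE 0.215, edgeR adjusted p = 0.000463). NRG1.2 rose in 2n (0.49) and fell in DH6 (-0.76) and in sDH (-1.003), with differences against 2n of -1.25 in DH6 (SE 0.148, edgeR adjusted p = 0.00015) and -1.49 in sDH (SE 0.151, adjusted p = 4.14e-05). Neither rise in 2n passed without the second 2n library (edgeR adjusted p = 0.0887 for ADR1-L2 and 0.15 for NRG1.2), and the fall of ADR1-L2 in sDH against 1n did not pass without sDH II or without the second 1n library (adjusted p = 0.187 and 0.153). Groups of 2 libraries are too small for a test of single libraries that stand apart.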

How the results depend on the processing

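Of 50 member results past the threshold, 36 kept their direction and call under each alternative run, and the other 14 lost the call in 45 instances with none reversed. Of 31 that were not past it, 15 did not move across the threshold or 0, with 13 gains and 16 changes of sign among the rest. With only the libraries of the groups compared in the fit, 1 gene of the set changed in 2n against 1n and 1 in DH14 against 1n, and over all tested genes the count was 4399 in 2n, 3028 in DH9 and 1628 in DH14 against 1n, where the test has fewer libraries to estimate the spread. With each library left out, the members changed numbered 0 to 2 in 2n against 1n, 1 to 2 in DH14 against 1n, 1 to 5 in DH9 against 2n and 1 to 5 in DH14 against 2n. Over all tested genes, between 2603 and 3916 changed in DH6 against 2n (4821 with all libraries), 3041 to 5737 in DH9 against 1n (5819), 979 to 1994 in DH9 against 2n (3308), 2150 to 4414 in DH14 against 1n (4603), 2247 to 3554 in DH14 against 2n (5041) and 3668 to 4518 in sDH against 2n (5828), again with fewer samples in each fit. Log2 changes that crossed 0 with a library left out, none of them called with all libraries, ran for NRG1.1 between -0.11 and 0.14 (DH9 against 1n), -0.022 and 0.47 (2n against 1n), -0.45 and 0.039 (DH9 against 2n) and -0.30 and 0.19 (DH14 against 2n). They ran for ADR1-L2 between -0.40 and 0.039 (DH9 against 1n) and -0.23 and 0.19 (DH14 against 1n), for EDS1 between -0.29 and 0.42 (2n against 1n) and -0.59 and 0.12 (DH14 against 1n), for ADR1 between -0.29 and 0.18 and for SAG101 between -0.018 and 0.19 (both 2n against 1n), and for NRG1.2 between -0.30 and 0.026 (DH14 against 1n). Replicate numbers shared by 1n, 2n, DH9 and DH14 did not pair the libraries, since deviations of same-numbered libraries correlated at -0.14 to 0.13 over 6 pairs of groups. The replicate block was fitted to the libraries of 1n, 2n, DH9 and DH14 only. With it 2077 genes changed in DH9 against 2n (937 rose and 1140 fell), and 4 members changed. The same libraries without the block also gave 4 members, with 1159 genes higher and 1378 lower. The fit of all 12 libraries gave 6 members. The DH6 and sDH columns carry other numerals and took no part in the block. The counts limit EDS1B most, with 17 to 59 counts in a library of DH6 or sDH, and 2 libraries a group limit every test.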
